A study of Mus musculus with 2 samples.

Results

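The colony-stimulating factors and their receptors were followed across the cell types of the mouse lung by scRNA-Seq, with 1 library for Cebpa fl/fl mice and 1 for Cebpa ΔSftpc mice, which the labels call Cebpa FF and Cebpa KO. The group was chosen by symbol and has 8 genes among the 32285 genes in the files. The ligands are Csf1, Il34, Csf2 and Csf3, and the receptor genes are Csf1r, Csf2ra, Csf2rb and Csf3r. All 8 were present in both libraries, although Csf3 had only 5 UMIs in the Cebpa fl/fl and 6 in the Cebpa ΔSftpc library. A UMI (unique molecular identifier) tags 1 captured RNA molecule, so that PCR copies of it are counted once.

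Both groups carried floxed Cebpa alleles on a mixed genetic background. Cebpa ΔSftpc mice also carried Sftpc-CreERT2, a tamoxifen-inducible Cre under the control of the surfactant protein C gene, which is active in alveolar type 2 (AT2) cells, and the control Cebpa fl/fl mice did not. Deletion was induced by 5 daily injections of 75 mg/kg tamoxifen in mice of 3 months, a second round of weekly injections was given in experiments of this length, and lungs of both groups were taken 26 weeks after the first injection. The study counted 3 mice per genotype, but the cell barcodes do not carry the mouse of origin, and each genotype therefore counted as 1 sample. Differences between them have no replicate check and were not tested. All intervals below are 95% intervals that cover counting error only.

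CSF1 (M-CSF) and IL-34 are both ligands of the receptor tyrosine kinase CSF1R, which keeps monocytes and macrophages alive and drives their growth. CSF2 (GM-CSF) binds a specific α chain, CSF2RA, that signals together with the β chain CSF2RB through JAK2 and STAT5. In the lung, CSF2 is made by AT2 cells and is needed for alveolar macrophages to mature and clear surfactant. The β chain also serves the receptors for IL-3 and IL-5. CSF3 (G-CSF) acts through CSF3R, which drives the production and release of neutrophils. C/EBPα, the product of Cebpa, is a transcription factor of AT2 cells and of early myeloid cells.

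On GRCm38, Csf1 spans chromosome 3, 107741048 to 107760469 on the minus strand, and Il34 chromosome 8, 110741829 to 110805924 on the minus strand. Csf2 spans chromosome 11, 54247271 to 54249667 on the minus strand, and Csf3 lies on the plus strand of the same chromosome, 98701263 to 98703629. Csf2ra spans chromosome 19, 61223957 to 61228429 on the minus strand, Csf3r chromosome 4, 126024550 to 126044440 on the plus strand, and Csf1r lies on the plus strand of chromosome 18. Csf2rb spans chromosome 15, 78325752 to 78353847 on the plus strand, and 20030 bases lie between it and its near-identical neighbour Csf2rb2. Reads from these β chain genes could have been split or lost in counting, so levels of Csf2rb are uncertain to that extent.

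Csf2 was the member most restricted to the targeted cell type, and its upstream region is shown for that reason. A match to the C/EBP sequence TTGCNNAA, searched on both strands, is in capitals. The window is chr11:54249900-54250149 of GRCm38, minus strand, the 250 bases before the RefSeq start, which itself lies upstream of the GENCODE start implied above.

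Csf2: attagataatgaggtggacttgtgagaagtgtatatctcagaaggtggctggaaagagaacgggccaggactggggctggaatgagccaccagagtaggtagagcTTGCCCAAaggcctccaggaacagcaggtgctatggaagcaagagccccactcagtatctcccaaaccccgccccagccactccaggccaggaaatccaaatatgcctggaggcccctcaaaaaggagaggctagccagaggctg

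The same sequence was found in 3142 (9.56%) of the 32851 mouse RefSeq promoter windows of this length. It was not found in the windows of Csf1, Csf2ra or Csf3r. A PU.1 sequence, GAGGAAG, also searched on both strands, was in 3486 (10.6%) of all windows and, of the 4 members with a window, in those of Csf2ra and Csf3r, in bases that GENCODE places inside the gene. A match is a description of the letters and does not show that the factor binds there. No window was given for Il34, Csf3, Csf1r or Csf2rb.

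Cells were assigned by raw UMIs of marker genes, none of which is a member, and names such as AT2 below stand for cells that passed such a gate (AT2-like cells). The 10 AT2 markers, for example, summed to 19978 and 16932 CPM in the AT2 gates and to 302 and 306 CPM in the rest of the libraries. The Cebpa fl/fl library had 11487 cells with a median of 4835 UMIs, and the Cebpa ΔSftpc library 13238 cells with a median of 2607 UMIs. A type was given to 89.8% and 73.2% of them, and 4.88% and 17.6% passed no lineage gate. Leukocytes were 128 cells (1.11%) in Cebpa fl/fl and 2043 cells (15.4%) in Cebpa ΔSftpc. The labels mention sorting, and the sort described in the methods discards CD45+ leukocytes, whereas the study's text speaks of whole-lung suspensions, so these shares describe the cells that were loaded. There were 45 barcodes common to the libraries. Alveolar macrophages numbered 3 against 354, neutrophils 3 against 304, nonclassical monocytes 8 against 218 and classical monocytes 8 against 181, in the order Cebpa fl/fl and Cebpa ΔSftpc. Epithelial cells numbered 767 and 453.

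Depth differed most in AT2 cells, which had a median of 21017 UMIs in the Cebpa fl/fl (463 cells) and 1626 UMIs in the Cebpa ΔSftpc library (248 cells). Levels are therefore given as CPM, the UMIs of a gene per 1000000 UMIs of all genes in the same gate, and shares of cells were also computed after thinning each cell to 1000 UMIs, which left out 4 and 52 AT2 cells. Leukocyte transcripts were also present outside leukocytes. In Cebpa ΔSftpc the summed level of 8 pan-leukocyte markers was between 217 CPM in AT1 and 353 CPM in aerocyte cells, against 5.46 to 23.9 CPM in the same gates of Cebpa fl/fl (AT2, AT1, ciliated, aerocyte, general capillary and adventitial fibroblast cells). All 8 markers were found in each of these gates except AT1 cells of the Cebpa fl/fl library, where 5 were at 0. Receptor levels outside leukocytes are read beside these values.

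Cebpa itself was at 154 CPM in Cebpa fl/fl AT2 cells and at 114 CPM in Cebpa ΔSftpc AT2 cells (log2 ratio -0.43, -0.65 to -0.22). It was found in 398 (86.0%) of 463 and 78 (31.5%) of 248 AT2 cells before thinning, and in 72 of 459 (15.7%, 12.5 to 19.3) and 17 of 196 (8.67%, 5.13 to 13.5) at equal depth. General capillary cells had 10.8 and 14.4 CPM and ciliated cells 40.2 and 40.5 CPM. Whether the 3′ tags lie inside the deleted part is not given in the sources used here.

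Csf1, the main survival factor of macrophages, was found mostly in endothelial cells. They held 3245 (74.4%) of the 4364 Csf1 UMIs of the Cebpa fl/fl library and 2132 (63.6%) of the 3353 of the Cebpa ΔSftpc library. Endothelial cells were also 67.9% and 54.0% of all cells in these libraries, so the UMI shares are read beside those numbers. General capillary cells alone held 2626 and 1466 UMIs, in 1686 (33.3%) of 5056 and 891 (24.9%) of 3582 cells. Their levels were 109 CPM (105 to 114) and 82.1 CPM (77.9 to 86.4). Adventitial fibroblasts, the collagen-rich cells around airways and vessels, were at 111 CPM (101 to 120) with 553 UMIs and at 131 CPM (116 to 147) with 277 UMIs. Venous endothelial cells were at 98.9 and 85.8 CPM and arterial cells at 69.4 and 103 CPM.

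Among Cebpa fl/fl types of 20 or more cells, the order was adventitial fibroblast, general capillary, venous and arterial, each overlapping the next in counting error, and then ductal myofibroblasts at 40.5 CPM (30.7 to 52.3), below arterial cells with intervals apart. Mesothelial cells, the lining of the pleura, were few but high, with 38 UMIs in 9 of 10 Cebpa fl/fl cells (366 CPM) and 10 UMIs in 3 of 4 Cebpa ΔSftpc cells (233 CPM). Aerocytes, the large capillary cells that face the alveolus, stood well below general capillary cells, at 15.8 CPM (159 UMIs) and 29.4 CPM (321 UMIs). Alveolar fibroblasts were at 35.5 and 52.6 CPM and pericytes at 20.9 and 5.38 CPM, the latter from 1 UMI. AT2 cells were near the bottom, at 5.03 CPM (47 UMIs) and 4.03 CPM (7 UMIs). That last level overlapped those of T cells (4.16 CPM), B cells (6.01 CPM) and alveolar macrophages (4.99 CPM) of Cebpa ΔSftpc, while T and B cells of Cebpa fl/fl had no Csf1 UMI among 27 and 39 cells. With the subtraction of free RNA described below, the Csf1 log2 ratio of AT2 cells was 1.59 in place of -0.32. The amount subtracted exceeded the Cebpa ΔSftpc UMIs there, and that sum was raised to 3, so no direction is read from it. The part of free RNA in these low levels was not tested further.

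The highest Csf1 levels were in basophils or mast cells. In Cebpa fl/fl, 10 such cells held 78 UMIs (1130 CPM, 893 to 1411), and in Cebpa ΔSftpc 40 cells held 276 UMIs (1185 CPM, 1049 to 1334). The median was 5 UMIs per cell in each library, and 9 of 10 and 37 of 40 cells had at least 1. The intervals of these levels overlapped. At equal depth, 23 (57.5%) of the 40 Cebpa ΔSftpc cells kept a Csf1 UMI, against 7.07% of general capillary cells of that library. These cells were 0.0871% and 0.302% of all cells and held 1.79% and 8.23% of all Csf1 UMIs. Group 2 innate lymphoid cells of Cebpa ΔSftpc had 8 UMIs in 4 of 11 cells (119 CPM, 51.3 to 234).

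Neutrophils of the Cebpa ΔSftpc library had 105 Csf1 UMIs in 58 (19.1%) of 304 cells, or 83.2 CPM (68.1 to 101). This was above the levels of T cells, B cells and alveolar macrophages with intervals apart and overlapped the level of general capillary cells. Summed general capillary markers in these neutrophils were at 338 CPM, against 222 CPM in alveolar macrophages and 146 CPM in T cells, and the 10 basophil or mast cell markers at 27.0 CPM with 5 at 0. The part of either in the neutrophil level was not tested. Only 1 Csf1 UMI was found in the 3 Cebpa fl/fl neutrophils.

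Il34, the other ligand of CSF1R, had a different pair of sources. Pericytes, the mural cells of capillaries, had 110 UMIs in 82 (37.1%) of 221 Cebpa fl/fl cells and 26 UMIs in 14 (37.8%) of 37 Cebpa ΔSftpc cells. Their levels were 105 CPM (86.0 to 126) and 140 CPM (91.3 to 205). AT2 cells had 138 UMIs in 102 (22.0%) of 463 cells and 24 UMIs in 20 (8.06%) of 248 cells, or 14.8 CPM (12.4 to 17.5) and 13.8 CPM (8.85 to 20.5). The pericyte level was above the AT2 level in each library with intervals apart. No other Cebpa fl/fl type of 20 or more cells was above 2.29 CPM. AT2 cells held 48.9% of the 282 Il34 UMIs of Cebpa fl/fl and pericytes 39.0%, against 18.2% and 19.7% of the 132 UMIs of Cebpa ΔSftpc. Summed AT2 markers in pericytes were at 216 and 96.8 CPM, and summed pericyte markers in AT2 cells at 38.4 and 67.3 CPM.

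The unthinned shares of AT2 cells with Il34 were far apart between the libraries while the levels overlapped. After thinning to 1000 UMIs, 8 of 459 Cebpa fl/fl cells (1.74%, 0.755 to 3.41) and 3 of 196 Cebpa ΔSftpc cells (1.53%, 0.317 to 4.41) kept a UMI. The pericyte shares at equal depth were 11.4% (25 of 219) and 11.1% (4 of 36). The unthinned share in general capillary cells (median 4344.5 and 4483 UMIs) was 0.0791% and 0.447%.

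Csf2 (GM-CSF) was found mostly in AT2 cells. AT2 cells of Cebpa fl/fl held 127 (87.0%) of the 146 UMIs of that library. These were spread over 102 (22.0%) of 463 cells, of which 81 had 1 UMI, 17 had 2 and 4 had 3 or more, so no single cell set the level of 13.6 CPM (11.3 to 16.2). AT2 cells of the Cebpa ΔSftpc library had 16 UMIs in 13 (5.24%) of 248 cells, or 9.21 CPM (5.26 to 15.0), and 4 of the 16 came from 1 cell. The intervals of the levels overlapped, and the log2 ratio was -0.56 (-1.41 to 0.19). At equal depth, 7 of 459 (1.53%) and 0 of 196 AT2 cells kept a Csf2 UMI, and the interval of the latter reached 1.86%.

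The remaining Csf2 UMIs of the Cebpa fl/fl library included 14 in 6 (0.119%) of 5056 general capillary cells, 7 of them in 1 cell. AT1 cells and ciliated cells had none in either library. In Cebpa ΔSftpc, group 2 innate lymphoid cells, a gate that no Cebpa fl/fl cell passed, had 4 UMIs in 3 of 11 cells (59.4 CPM, 16.2 to 152), and all leukocytes together had 9 of 27 UMIs. The lymphoid level was above that of AT2 cells of the same library (9.21 CPM, 5.26 to 15.0) with intervals apart, but rested on those 4 UMIs. AT2 cells with both Csf2 and Il34 numbered 25 of 463 and 7 of 248, beside 77 with Csf2 alone and 77 with Il34 alone in Cebpa fl/fl.

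Csf3 was close to absent from both libraries. Of its 5 Cebpa fl/fl UMIs, 2 were in epithelial cells, 2 in endothelial cells and 1 in an ungated cell. Of the 6 Cebpa ΔSftpc UMIs, 3 were in 1 neutrophil. No gate had more than 3 UMIs, so no level or ratio of Csf3 is given.

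**Figure D1:**
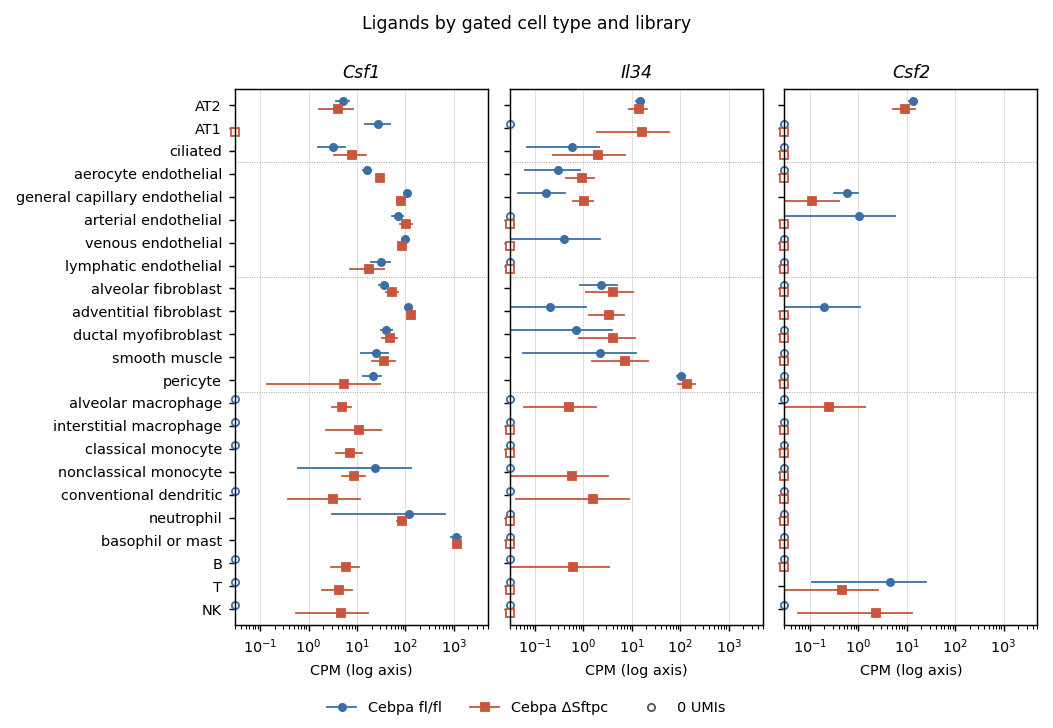
Levels of Csf1, Il34 and Csf2 (CPM, log axis) by gated cell type, with Cebpa fl/fl as circles, Cebpa ΔSftpc as squares, exact Poisson intervals as lines and open symbols at the left edge for 0 UMIs; dotted lines part epithelial, endothelial, mesenchymal and leukocyte types. Csf1 was spread over endothelial and mesenchymal types and peaked in basophils or mast cells at 1130 and 1185 CPM, Il34 peaked in pericytes at 105 and 140 CPM, and Csf2 was in AT2 cells at 13.6 and 9.21 CPM.

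Among receptors, Csf1r was highest in monocytes and interstitial macrophages. Nonclassical monocytes, the patrolling CX3CR1-high monocytes, had 54 UMIs in 8 of 8 Cebpa fl/fl cells (1265 CPM, 951 to 1651) and 1342 UMIs in 176 (80.7%) of 218 Cebpa ΔSftpc cells (791 CPM, 749 to 835). Interstitial macrophages were at 517 CPM (331 to 769, 11 cells) and 728 CPM (631 to 836, 50 cells), and classical monocytes at 348 CPM (231 to 503, 8 cells) and 399 CPM (367 to 432, 181 cells). In Cebpa ΔSftpc, nonclassical monocytes and interstitial macrophages overlapped and both stood above classical monocytes. Alveolar macrophages were lower, at 78.1 CPM (69.7 to 87.2) with 313 UMIs in 152 (42.9%) of 354 cells, below neutrophils at 123 CPM (104 to 144).

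The depth-matched shares of cells with Csf1r in Cebpa ΔSftpc followed the same order, with 102 of 201 nonclassical monocytes (50.7%), 25 of 50 interstitial macrophages, 32.8% of classical monocytes, 8.83% of neutrophils and 7.76% of alveolar macrophages. T cells, a type outside the myeloid lineage, had a Csf1r UMI in 13 (4.92%) of 264 unthinned cells with a median of 8265 UMIs. Interstitial macrophages had one in 39 of 50 cells with a median of 2918 UMIs. Basophils or mast cells had no Csf1r UMI in either library, among 10 and 40 cells.

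Csf2ra, the specific chain of the GM-CSF receptor, was at a similar level over nearly all myeloid types of the Cebpa ΔSftpc library. It was at 400 CPM in interstitial macrophages, 346 CPM in nonclassical monocytes, 345 CPM in alveolar macrophages, 335 CPM in neutrophils, 312 CPM in classical monocytes and 295 CPM in conventional dendritic cells, each overlapping the next. Among macrophages, monocytes and neutrophils, the β chain Csf2rb varied more, from 390 CPM (371 to 410) in alveolar macrophages and 343 CPM (311 to 376) in neutrophils to 176 and 174 CPM in the monocyte types and 61.9 CPM (36.0 to 99.1) in interstitial macrophages. T cells were at 5.55 CPM and B cells at 20.4 CPM. Conventional dendritic cells were at 660 CPM in Cebpa fl/fl, from 20 UMIs in 3 cells, and at 147 CPM in Cebpa ΔSftpc, from 93 UMIs in 40 cells.

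Alveolar macrophages of the Cebpa ΔSftpc library held the most UMIs of both chains, 1384 of Csf2ra and 1562 of Csf2rb. Both chains were found in 218 (61.6%) of 354 cells, 31 cells had Csf2ra alone, 40 had Csf2rb alone and 65 had neither, at a median of 5010.5 UMIs. T cells, with a median of 8264.5 UMIs, had Csf2ra in 7.58% and Csf2rb in 3.79% of cells. Csf2ra per 100 Csf2rb UMIs was 88.6 in these cells and 97.9 in neutrophils, against 179 in classical and 196 in nonclassical monocytes. The 3 alveolar macrophages of the Cebpa fl/fl library had 1 Csf2ra and 0 Csf2rb UMIs, so no comparison of this cell type was possible.

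Basophils or mast cells were the reverse case, with the β chain and hardly any α chain. They had 48 Csf2rb UMIs in 9 of 10 Cebpa fl/fl cells (695 CPM, 513 to 922) and 292 in 38 of 40 Cebpa ΔSftpc cells (1254 CPM, 1114 to 1406), against 2 and 5 UMIs of Csf2ra. Csf2rb2, which in mice encodes a β chain used by the IL-3 receptor, was also highest there in Cebpa ΔSftpc, at 610 CPM (142 UMIs) against 60.6 CPM in alveolar macrophages. Csf1 and Csf2rb were in the same cell in 8 of 10 and 36 of 40 of these cells.

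Ciliated cells, the motile-ciliated lining of the airways, had the opposite combination, the α chain without the β chain. They had 148 Csf2ra UMIs in 97 (46.6%) of 208 Cebpa fl/fl cells (42.5 CPM, 35.9 to 49.9) and no Csf2rb UMI, where a count of 0 allows up to 3. In Cebpa ΔSftpc they had 56 Csf2ra UMIs in 33 (21.3%) of 155 cells (55.3 CPM, 41.8 to 71.9) and 5 Csf2rb UMIs. The depth-matched shares were 1.93% (0.529 to 4.87) and 5.47% (2.23 to 10.9). In Cebpa fl/fl, the depth-matched share was 0.606% (0.409 to 0.864) in general capillary cells and 1.96% (0.900 to 3.69) in AT2 cells. Both overlapped the ciliated share of that library. Unthinned, 2.51% of Cebpa fl/fl general capillary cells had a Csf2ra UMI, against the 46.6% of ciliated cells. Other Cebpa fl/fl gates shared the combination at lower Csf2ra levels. AT2 cells had 94 Csf2ra and 1 Csf2rb UMIs, adventitial fibroblasts 45 and 0, and alveolar fibroblasts 22 and 0. General capillary cells had 145 and 22. The Csf2ra level of Cebpa fl/fl ciliated cells was above that of AT2 cells (10.1 CPM, 8.13 to 12.3) and general capillary cells (6.04 CPM, 5.09 to 7.10) with intervals apart. Leaving out the 28 cells with a UMI of any pan-leukocyte marker left it at 42.5 CPM in 180 cells, and in Cebpa ΔSftpc leaving out 110 cells gave 67.6 CPM (42.4 to 102) in 45 cells.

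**Figure D2:**
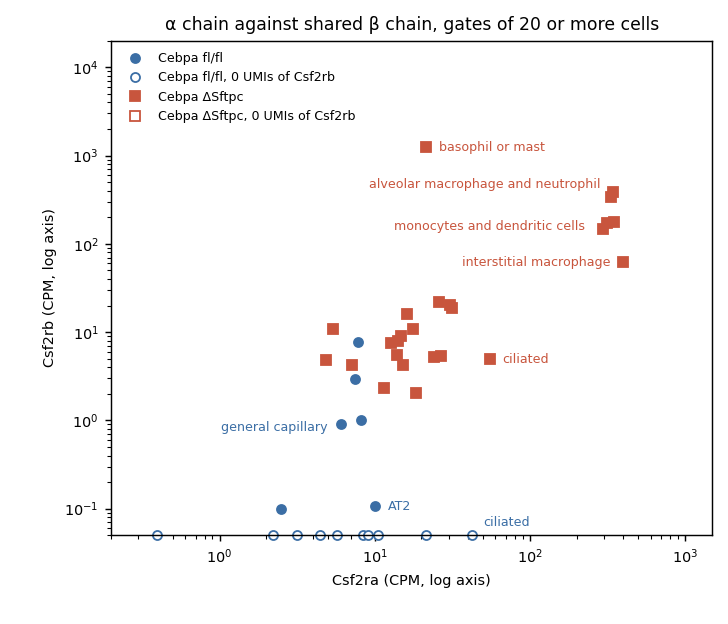
Csf2ra against Csf2rb (CPM, both log axes) for gated types with 20 or more cells, Cebpa fl/fl as circles and Cebpa ΔSftpc as squares, with open symbols on the lower edge for 0 UMIs of Csf2rb. Alveolar macrophages and neutrophils lie high on both axes, basophils or mast cells (1254 CPM of Csf2rb, 21.5 CPM of Csf2ra) lie at the top left, and ciliated cells lie at the lower right at 42.5 and 55.3 CPM of Csf2ra.

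Csf3r was by far highest in neutrophils, with 2806 UMIs in 287 (94.4%) of 304 Cebpa ΔSftpc cells, or 2225 CPM (2143 to 2308). At equal depth it was still found in 236 (83.4%) of 283 neutrophils, whereas 2.27% of T cells had a UMI unthinned. The 3 Cebpa fl/fl neutrophils had 12 UMIs, all in 1 cell. Nonclassical monocytes of Cebpa ΔSftpc followed at 297 CPM and classical monocytes at 111 CPM, but the first value rested on cells with neutrophil transcripts. The summed level of the 12 neutrophil markers was 1296 CPM in that gate, against 467 CPM in classical monocytes, and without the 61 nonclassical cells with a UMI of Retnlg or Cxcr2 the level was 94.6 CPM (77.1 to 115), with 101 in place of 504 UMIs. Classical monocytes without 26 such cells were at 101 CPM (84.9 to 119), so the monocyte types then overlapped. Alveolar macrophages had 92 Csf3r UMIs (18.5 to 28.2 CPM), and their summed neutrophil markers at 187 CPM.

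**Figure D3:**
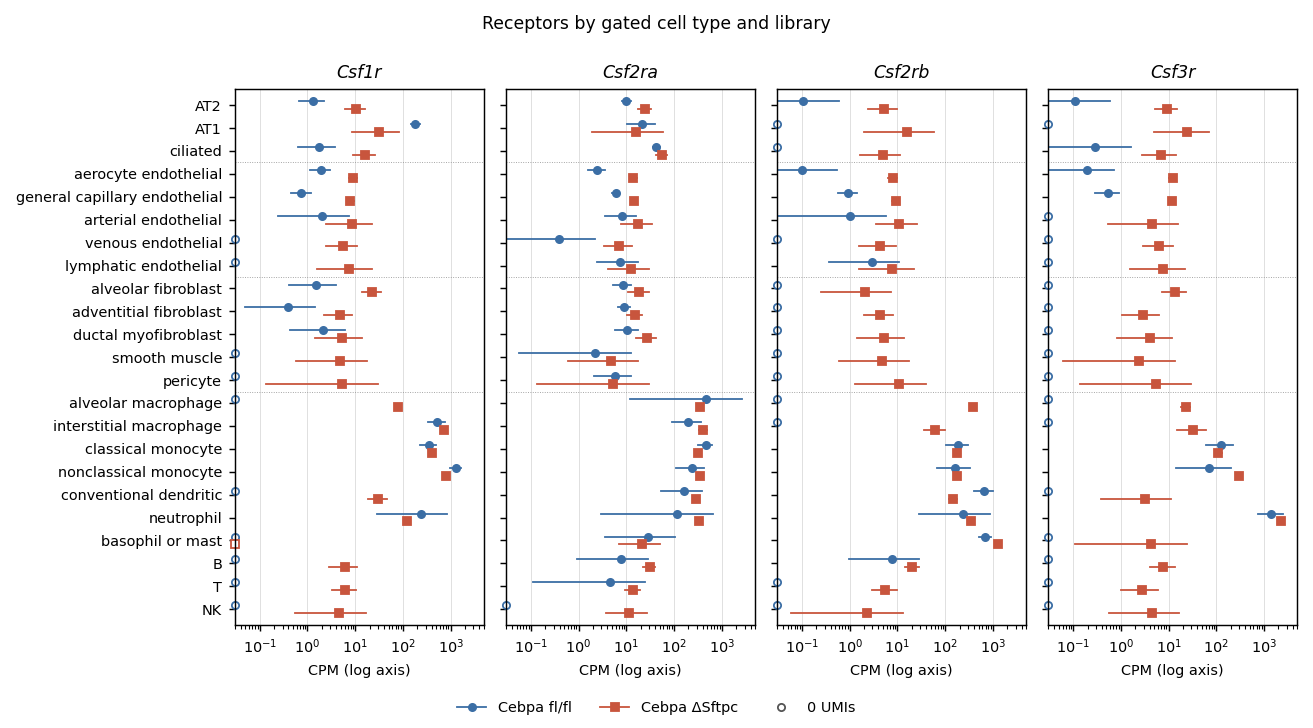
Levels of Csf1r, Csf2ra, Csf2rb and Csf3r (CPM, log axis) by gated cell type, with Cebpa fl/fl as circles, Cebpa ΔSftpc as squares, exact Poisson intervals as lines and open symbols at the left edge for 0 UMIs. Receptors were highest in myeloid types, Csf3r in neutrophils at 2225 CPM, and in Cebpa ΔSftpc low levels of all 4 appear across epithelial, endothelial and mesenchymal types.

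Receptor transcripts were far more numerous in the Cebpa ΔSftpc library and ligand transcripts fewer. The 4 ligand genes had 4797 UMIs in Cebpa fl/fl and 3518 in Cebpa ΔSftpc, and leukocytes held 1.69% and 15.0% of them. The 4 receptor genes had 1250 and 18971 UMIs, and leukocytes held 31.5% and 78.2%. For Csf1r the totals were 377 and 4287, for Csf2ra 672 and 5036, for Csf2rb 152 and 4253, and for Csf3r 49 and 5395. Fewer cells of a type and less RNA per cell cannot be told apart in such totals, and the leukocyte gates held 128 and 2043 cells.

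**Figure D4:**
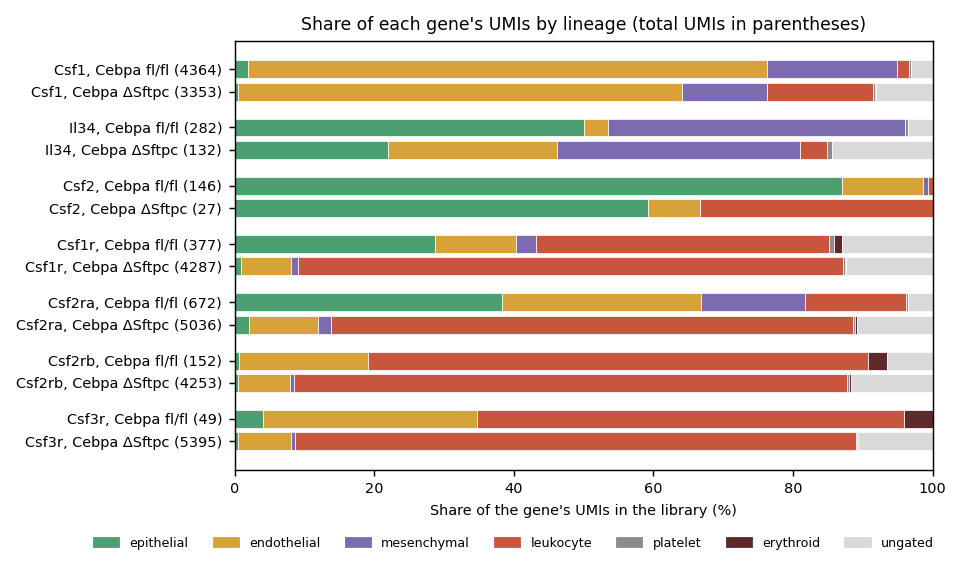
Share of the UMIs of each gene (%) held by each lineage gate, 1 bar per gene and library with total UMIs in parentheses. Leukocytes held 41.9% of Csf1r UMIs in Cebpa fl/fl and 78.2% in Cebpa ΔSftpc, and the epithelial share of Csf2 was 87.0% and 59.3%.

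Ratios between the libraries were read in gates with 20 or more cells in each. With 1 library per genotype these are differences between 2 libraries. In AT2 cells, Csf1, Il34, Csf2 and Csf2ra had 50 or more UMIs over both libraries. Csf2ra was past 2-fold, at a log2 ratio of 1.26 (0.70 to 1.80) from 10.1 to 24.2 CPM, but not after subtraction of free RNA (0.81) or under a stricter cell filter (500 genes, 10% mitochondrial UMIs; 0.86). Of all 9924 genes with as many UMIs, 3.69% were 2-fold or more higher and 0.826% lower in Cebpa ΔSftpc AT2 cells. Pan-leukocyte markers in these AT2 gates were at 5.46 and 261 CPM, and the Csf2ra level without cells that had any such UMI was 9.96 CPM in Cebpa fl/fl (83 UMIs) and 17.3 CPM (7.48 to 34.1) in Cebpa ΔSftpc (8 UMIs). These intervals overlapped. The Il34 ratio was -0.10 (-0.79 to 0.54).

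Csf1 in general capillary cells had a log2 ratio of -0.41 (-0.51 to -0.32), where 5.8% of 12587 genes were 2-fold or more higher and 0.89% lower. At equal depth the shares of these cells with Csf1 were 9.86% (9.05 to 10.7) and 7.07% (6.23 to 7.99). Aerocytes differed the other way, with a ratio of 0.90 (0.62 to 1.18) and depth-matched shares of 0.945% (0.517 to 1.58) and 2.70% (2.04 to 3.50). The 8 general capillary markers summed to 2856 and 2358 CPM in aerocytes, and to 11185 and 8235 CPM in general capillary cells themselves. The part of general capillary RNA in the aerocyte Csf1 levels was not tested. The aerocyte ratio was 1.39 (1.04 to 1.75) without predicted doublets and 1.70 after subtraction of free RNA. Of the aerocyte genes, 5.8% were 2-fold or more higher and 0.435% lower.

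Adventitial fibroblasts had a Csf1 ratio of 0.25 (0.03 to 0.46), alveolar fibroblasts 0.57 (0.05 to 1.08), arterial cells 0.57 (0.00 to 1.13) and venous cells -0.21 (-0.53 to 0.11). The Il34 ratio in pericytes was 0.42 (-0.26 to 1.04). Ductal myofibroblasts had a Csf1 ratio of 0.25 (-0.40 to 0.87), and the Csf2ra ratio was 0.38 (-0.09 to 0.83) in ciliated cells and 0.75 (0.05 to 1.44) in adventitial fibroblasts. None of these was past 2-fold. The shares of all genes 2-fold or more higher and lower were 1.35% and 1.46% in ciliated cells, 1.83% and 2.28% in arterial cells, 0.921% and 0.685% in venous cells, and 1.83% and 1.16% in alveolar fibroblasts. In adventitial fibroblasts they were 1.29% and 0.934%, in ductal myofibroblasts 2.33% and 1.72%, and in pericytes 1.39% and 5.45%. B cells had enough UMIs of Csf2ra only, which was past 2-fold at 1.39 (-0.24 to 3.71) from 2 and 51 UMIs, where 5.13% of genes were higher and 0.921% lower.

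**Figure D5:**
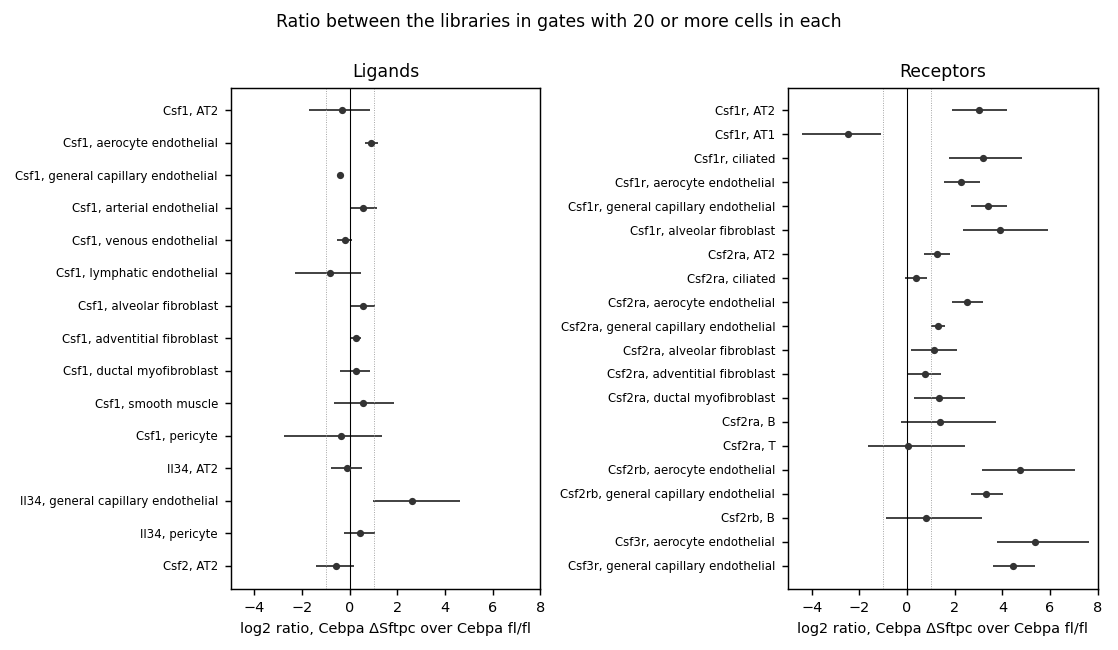
Log2 ratio (Cebpa ΔSftpc library over Cebpa fl/fl library) with exact intervals for each member with 20 or more UMIs in a gate of 20 or more cells in each library; dotted lines mark 2-fold. Most ligand points lie between the dotted lines, with Il34 in general capillary cells (4 and 18 UMIs) to the right, and receptor points lie right of 0 except Csf1r in AT1 cells (-2.49).

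All 4 receptor genes were past 2-fold in general capillary cells, with log2 ratios of 3.39 for Csf1r, 1.29 for Csf2ra, 3.32 for Csf2rb and 4.43 for Csf3r, and all 4 were past 2-fold in aerocytes, with 2.28, 2.51, 4.73 and 5.36. Of the 19 Csf1r UMIs in Cebpa fl/fl aerocytes, 14 were in 1 cell. Their general capillary levels in Cebpa ΔSftpc were 7.84, 14.8, 9.12 and 11.6 CPM. T cells of the same library were at 6.01, 13.9, 5.55 and 2.77 CPM, and B cells at 6.01, 30.6, 20.4 and 7.81 CPM. Pan-leukocyte markers in general capillary cells were at 15.9 and 284 CPM. When free RNA was subtracted, the Csf1r ratio was 0.63 and those of Csf2ra, Csf2rb and Csf3r were -4.43, -1.35 and -1.07. The amount subtracted exceeded the Cebpa ΔSftpc UMIs of each of these genes, and for Csf1r those of both libraries. Such sums were raised to 3, so these values only mark that floor. No direction is given for receptors in endothelial cells. Csf3r per 100 UMIs of Retnlg, a neutrophil transcript, was 20.2 in neutrophils, 19.8 in AT2 cells, 30.6 in aerocytes and 42.4 in general capillary cells of Cebpa ΔSftpc.

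Csf1r in AT1 cells was the exception among nonleukocyte gates. AT1 cells, the flat cells of gas exchange, had 85 UMIs in 33 (43.4%) of 76 Cebpa fl/fl cells, or 181 CPM (144 to 224), and 4 UMIs in 3 of 29 Cebpa ΔSftpc cells, or 32.1 CPM (8.75 to 82.2). The log2 ratio was -2.49 (-4.40 to -1.08), in a gate where 20.2% of 2020 genes were 2-fold or more lower and 9.16% higher, so a gene past 2-fold was common there. AT1 cells held 22.5% of all Csf1r UMIs of the Cebpa fl/fl library. Of the 33 cells, 13 had 3 or more UMIs, and the most in 1 cell was 11. The 10 AT1 markers themselves summed to 42216 CPM in the Cebpa fl/fl gate and 11325 CPM in the Cebpa ΔSftpc gate.

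Leukocyte RNA was scarce in these Cebpa fl/fl AT1 cells. Tyrobp and C1qa had 0 UMIs, 10 of the 11 interstitial macrophage markers were at 0, and 9 of the 12 nonclassical monocyte markers were at 0. Of 12 alveolar macrophage markers 7 were at 0, and 539 of the UMIs of the others were of Krt19, a keratin. Ciliated markers summed to 2929 CPM, chiefly 1082 UMIs of Sec14l3 and 271 of Tppp3, with 2 UMIs of Foxj1, and ciliated cells themselves had 1.72 CPM of Csf1r. Without the 4 cells with any pan-leukocyte UMI, Csf1r was at 180 CPM (143 to 224) in 72 cells. Cells with a Csf1r UMI had 21735 CPM of Ager and 1407 CPM of Rtkn2, and cells without one had 7048 and 591 CPM. Detection of a Csf1r UMI depends on the depth of a cell, and these sets of cells were not matched for depth. At equal depth, 13 of 65 Cebpa fl/fl cells (interval 11.1% to 31.8%) and 1 of 27 Cebpa ΔSftpc cells (3.70%, 0.0937 to 19.0) kept a Csf1r UMI, and these intervals overlapped. Csf2ra in AT1 cells was at 21.3 CPM from 10 UMIs, and Csf2rb and Csf3r were at 0.

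Csf1r in the monocyte and macrophage gates could only be described, since the Cebpa fl/fl gates held 8 to 11 cells. The log2 ratios were -0.68 (-1.07 to -0.26) in nonclassical monocytes, 0.20 (-0.35 to 0.80) in classical monocytes and 0.49 (-0.12 to 1.17) in interstitial macrophages. The nonclassical ratio ran from -0.69 to -0.21 over 10 alternatives. Retnlg or Cxcr2 was found in 61 of the 218 Cebpa ΔSftpc nonclassical cells and in 0 of the 8 Cebpa fl/fl cells. The Csf1r level and ratio without those cells were not computed. The intervals leave out the variation from cell to cell.

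Other genes of these pathways were counted in AT2 and general capillary cells from fixed lists. Of 10 JAK-STAT carriers and brakes, 9 had enough UMIs in AT2 cells and 10 in general capillary cells, and none was past 2-fold in either. The AT2 list ran from Stat5a, a carrier of GM-CSF signals, at 0.81 to Socs2, a brake on cytokine receptors, at -0.35, with a median of 0.30 against 0.13 for all genes. The general capillary list ran from Socs3 at 0.62 to Jak1 at -0.19, with a median of 0.13 against 0.00 for all genes.

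Of 10 carriers below CSF1R, 5 had enough UMIs in AT2 cells and 2 of them were higher, led by the myeloid adaptor Tyrobp at 6.46, with Grb2 lowest at 0.21 and a median of 0.78. In general capillary cells 5 of 10 were higher, from Fgr at 5.73 to Grb2 at -0.04, with a median of 0.68. Of 12 myeloid transcription factors, none of 5 was past 2-fold in AT2 cells, with Cebpb highest at 0.87 (median 0.36), and 9 of 10 were higher in general capillary cells, led by Spi1 at 4.41 (median 1.84). These values stand beside those of the pan-leukocyte markers given above, whose part in these values was not tested. Tyrobp itself belongs to those markers.

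Among kin of CSF1R, Kit was the highest of 3 in AT2 cells at 1.17 (median 1.16, 2 past 2-fold) and Flt3l, the ligand of FLT3, the lowest at 0.14. Kit and Kitl were the 2 past 2-fold, in a gate where 3.69% of all genes were 2-fold or more higher. Kit is itself a general capillary marker, and those markers summed to 275 and 339 CPM in the AT2 gates. Kitl was highest in aerocytes, at 2361 and 2319 CPM, against 36.8 and 82.3 CPM in AT2 cells. The part of free RNA in these AT2 values was not tested. In general capillary cells none of 3 was past 2-fold, from Kitl at 0.12 to Flt3l at -0.21. For the other binding partners of IL-34, only Sdc1 had enough UMIs, at 0.00 in AT2 cells and 0.31 in general capillary cells. Of the β chain family, only Il3ra, the α chain of the IL-3 receptor, had enough UMIs, at 0.28 in general capillary cells. Il3ra was highest in aerocytes, at 54.2 CPM in Cebpa fl/fl and 57.1 CPM in Cebpa ΔSftpc, and Il3 had no UMI in either library.

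Genes with the pattern across types most like that of each member were found by Pearson's r of log2(CPM + 10) over the gated types with 50 or more cells, 14 in Cebpa fl/fl and 20 in Cebpa ΔSftpc. Types of 1 library share its depth and free RNA, and with so few types these correlations are a description. In Cebpa fl/fl, Csf1 was closest to Adam15 (0.84), Arhgap20 (0.84) and Gbp2 (0.82), and Il34 to Baiap3 (0.98), Lipg (0.97) and Tmem178 (0.96). Csf2 was closest to Slc26a4 (0.999), Tlr1 (0.99) and Ffar2 (0.99). Csf1r was closest there to Dapl1, Krt15 and Scnn1g (0.99 each), and Csf2ra to Hook2 (0.91), Osbpl6 (0.91) and Rgs11 (0.91). Over these 14 types, Csf2 was at 13.6 CPM in AT2 cells and at most 1.02 CPM in the others. Csf1r was at 181 CPM in AT1 cells and at most 4.70 CPM in the others. Il34 was at 105 CPM in pericytes, 14.8 CPM in AT2 cells and at most 2.29 CPM in the others. For Csf2 and Csf1r, 1 type therefore largely set the r values, and for Il34 pericytes and AT2 cells did.

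In the other library, Csf1r was closest to Clec12a (0.94), Cd300a (0.94) and E230029C05Rik (0.94), Csf2ra to Cd300c2 (0.96), Spi1 (0.96) and Nfam1 (0.96), Csf2rb to Mcemp1 (0.98), Ccl6 (0.98) and Nfam1 (0.97), and Csf3r to Il1b (0.98), Cd300lb (0.98) and 1600010M07Rik (0.97). Csf3r was at 2225 CPM in neutrophils, 297 CPM in nonclassical and 111 CPM in classical monocytes. It was at most 32.8 CPM in the other types used, so few types weighed on its r values. Csf1 was closest to Hoxa3 (0.83), 2700033N17Rik (0.82) and Cebpd (0.82). The other pairs rested on 17 to 73 UMIs of the member. For Il34 the genes were Akr1c19, Epha7 and Prrg3, and for Csf2 they were Myh7, Bex4 and Acoxl, in Cebpa ΔSftpc. For Csf2rb they were Tmc8, Acsf2 and A630001G21Rik, and for Csf3r Sh3gl2, 2610507I01Rik and Glcci1, in Cebpa fl/fl.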

How the data were processed

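Lung cells were profiled by droplet-based 3′ scRNA-Seq, with 1 library for each of the genotypes. The deposited values are raw UMI counts that the authors made with Cell Ranger (6.1.1 per the labels and the paper, 5.0.0 per the file headers) on mm10, not normalized. The files held 11721 and 13373 barcodes with 69200420 and 64697396 UMIs. The paper's cell numbers are those of the barcodes, but its filter (at least 200 genes, at most 20% mitochondrial UMIs) was applied here and left 11487 and 13238 cells. Doublets were kept, as no removal is stated, and left out as an alternative (the 6% of cells with the highest Scrublet score). Lineages required 3 distinct markers of the lineage with at least 2 times the UMIs of any other lineage. These were pan-lineage markers for endothelial, mesenchymal and leukocyte cells. For epithelial cells the AT2 and ciliated markers were added to them and Sftpb was left out, and platelets had their own list. Types required 3 distinct markers and the largest share of a list found (for leukocytes also the most UMIs of a list). Erythroid cells had at least 10% hemoglobin UMIs. The members and lists were chosen with earlier results of these data known, and the form of the gate was settled on the files.

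Counts were summed per gate. CPM carry exact Poisson intervals, shares Clopper-Pearson intervals and ratios exact binomial intervals, with sums under 3 raised to 3. The level is 95%, and the intervals cover counting error only. Genes counted as past 2-fold needed 50 UMIs over both libraries. Ratio intervals were tried on simulated counts with counting error only, for genes of 50 or more UMIs in AT2 or general capillary cells. That trial cannot speak to variation between cells or mice, or to members with fewer UMIs. Leaving out cells with Retnlg, Cxcr2 or pan-leukocyte UMIs, the minimum of 5000 UMIs and the thinning for Cebpa were chosen after seeing the data. All members are named, with the 3 most similar genes of each (genes of 200 or more UMIs, no gate marker) and the highest and lowest gene of each pathway list, of which 1 is not reported here. Gene positions are from GENCODE M21 and promoters from RefSeq (GRCm38.p6), which matched 4 of 8 members. Analyses ran in Python 3.11.15 with scanpy 1.11.5, scipy 1.17.1, matplotlib 3.10.9, pandas 2.3.3 and numpy 2.4.6.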

Additional observations from a re-analysis of the deposited data

Results flagged for a closer look

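Csf1 differed in opposite directions in the capillary types, with a log2 ratio of 0.90 (0.62 to 1.18) in aerocytes and -0.41 (-0.51 to -0.32) in general capillary cells. The Csf1r ratios were 3.39 (2.67 to 4.18) in general capillary cells and -2.49 (-4.40 to -1.08) in AT1 cells, of opposite sign. The general capillary ratio was 0.63 after subtraction of free RNA, where the sums of both libraries had been raised to the floor of 3. Pan-leukocyte markers in those gates were at 15.9 and 284 CPM, so no direction is read from the general capillary ratio. With 1 library per genotype, neither difference was tested.

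Cells that passed no lineage gate enter no comparison of gated types, although their UMIs are part of the library totals. Those of the Cebpa ΔSftpc library (2324 cells) held receptor UMIs above the level in Cebpa fl/fl (560 cells). Csf1r was at 89.7 CPM against 24.4 CPM, Csf2ra at 91.7 against 12.0 CPM, Csf2rb at 83.8 against 4.98 CPM and Csf3r at 96.9 CPM against 0 UMIs. Pan-leukocyte markers summed to 3095 CPM in these Cebpa ΔSftpc cells and 199 CPM in those of Cebpa fl/fl.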

How the results depend on the processing

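No paired analysis was possible because there was 1 library per genotype, and no library could be left out. For the general capillary receptors, subtraction of free RNA gave a log2 ratio of 0.63 in place of 3.39 for Csf1r. It gave -4.43 for Csf2ra, -1.35 for Csf2rb and -1.07 for Csf3r. The subtraction took the markers of other lineages in a gate as free RNA, and sums that fell under 3 were raised to 3. This was so for every general capillary receptor sum of Cebpa ΔSftpc, and for Csf1r in both libraries. The amount subtracted was larger than the UMIs there, so the signs of these ratios show no direction. Csf2ra in AT2 cells fell under 2-fold with that subtraction (0.81) and with the stricter cell filter (0.86). With cells of at least 5000 UMIs only, an alternative chosen after seeing the data, Csf2rb was at 2.37. In AT2 cells, genes 2-fold higher numbered 366, and 763 with 20 UMIs as the minimum and 6130 with none, and genes 2-fold lower numbered 82, and 130 with either. Relative to the median gene, 131 were lower in AT2 cells. In general capillary cells 730 genes were higher and 112 lower, against 1169 and 222 with 20 UMIs and 1861 and 367 with none. The Csf1 ratio in general capillary cells ran from -0.42 to -0.34, that of Il34 in AT2 cells from -0.23 to -0.01 and that of Csf2 in AT2 cells from -0.70 to -0.42 over 10 alternatives each. At 2000 UMIs per cell, Csf1 was in 18.6% and 13.7% of general capillary cells, and Csf2ra in 8.33% and 7.02% of ciliated cells, where the order of the libraries was the other way. Of the main results under each alternative, 108 stayed within the counting interval (1.5 times for counts), 11 left it and 3 changed sign. Those 3 were the subtracted general capillary ratios of Csf2ra, Csf2rb and Csf3r. The type with the highest level changed under an alternative only for Csf3 and, with at least 5000 UMIs, for Csf1r in Cebpa ΔSftpc, from nonclassical monocytes to interstitial macrophages. Depth limits Csf3, with 5 and 6 UMIs, and Csf2, with 16 UMIs in AT2 cells of Cebpa ΔSftpc.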

Other observations

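Trem2, a lipid receptor of macrophages, was highest in interstitial macrophages of Cebpa ΔSftpc, at 313 CPM (86 UMIs). Flt3l was highest in adventitial fibroblasts, at 175 CPM in Cebpa fl/fl and 125 CPM in Cebpa ΔSftpc, the type that was also high in Csf1.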
